A study of Drosophila melanogaster with 13 samples.

Results

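The 10 enzyme genes described here encode the steps of glycolysis from the first phosphorylation of glucose to the reduction of pyruvate: Hex-A, Pfk, Ald1, Tpi, Gapdh1, Gapdh2, Pgk, Eno, Pyk and Ldh. They were chosen by name and matched by gene ID among the 17753 genes of the count table, and all 10 were found. The data come from MN1-Ib, an identified glutamatergic motoneuron that innervates a body wall muscle of the Drosophila melanogaster larva. Each of the 13 libraries pooled the aspirated contents of 4 to 8 such cells, taken by patch pipette from 1 or at most 2 larvae of instar 3. All groups carried the driver MN1-Ib-GAL4 with UAS-mCD8:GFP, which marks this neuron with membrane-bound GFP. The control group (3 libraries) carried the reporter alone, and the other groups added RNA interference in the same cells against Shal (Shal RNAi, 3 libraries), against Notch (Notch RNAi, 4 libraries) or against both (Notch+Shal RNAi, 3 libraries). Shal encodes a voltage-gated potassium channel of the A type and Notch a cell-surface receptor. Libraries are named by group and replicate number, and the design asks how the transcripts of this neuron differ when either gene, or both, is targeted.

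Glycolysis splits glucose into pyruvate in the cytoplasm and yields ATP and NADH. Pyruvate then enters mitochondria, or lactate dehydrogenase reduces it to lactate and so restores the NAD+ that glycolysis consumes. In flies the circulating sugar is trehalose, and glia are known to break down sugar and to hand lactate and alanine to neurons, while neurons also express the glycolytic enzymes themselves.

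Total counts ran from 3783100 to 9319116 per library, so that the floor of 3 counts stood at 0.322 to 0.793 CPM, counts scaled to the library total. Template switching and PCR amplified the RNA and no molecular identifiers are described, so floors and the intervals of count shares cover counting error only. The intervals of fold changes come from the fit and include the spread between libraries. The motoneuron gene VGlut, which encodes a vesicular glutamate transporter, was counted in every library, at 401 to 2841 CPM. Of 10 glia genes, alrm had no count anywhere and the glial determinant repo was at 0 in 11 libraries, but Gs2 (16.3 to 755 CPM) and nrv2 (8.77 to 745 CPM) were counted in all 13, and the list summed to 174 to 1042 CPM. The 12 muscle genes summed to 325 to 4372 CPM, led by the myosin light chain genes Mlc2 (24.6 to 1312 CPM) and Mlc1 (29.1 to 1002 CPM), and the muscle myosin gene Mhc, at 0 to 126 CPM, was the one with a library at 0. The hemocyte gene Hml ranged from 0.266 to 295 CPM, and the 4 larval serum protein genes of the fat body (Lsp1alpha, Lsp1beta, Lsp1gamma and Lsp2) were counted in all 13 libraries. The 9 fat body genes summed to 2063 to 20379 CPM, and the 8 motoneuron genes to 3968 to 20231 CPM. These 8 were VGlut, elav, nSyb, brp, Syt1, Cadps, nrv3 and eve, led by nrv3 with 688539 counts against 120005 for VGlut. The list includes genes of neurons in general, such as elav and nSyb, so it does not set motoneurons apart from other neurons. The fat body sum was above the motoneuron sum in Control 2, Shal RNAi 1, Notch RNAi 4, Notch+Shal RNAi 1 and Notch+Shal RNAi 3. It was below in the other libraries. The share of counts from mitochondrially encoded genes was 13.5% in Shal RNAi 1 and 11.5% in Shal RNAi 3, against 0.893 to 5.83% elsewhere, and these 2 libraries also had the lowest scaling factors, 0.568 and 0.620 against 0.935 to 1.41. Neither target was called lower in the libraries named for it: Shal had a log2 fold change of 1.72 (SE 0.83) in Shal RNAi against control (edgeR adjusted p = 0.424), and N one of -0.16 (SE 1.03) in Notch RNAi (adjusted p = 0.999). Groups are therefore given by label, and since the labels do not tie reactions to larvae, a p-value reflects only how the reactions varied, which may be technical.

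All 10 genes were counted in all 13 libraries. Together they took between 0.165% of counts, in Notch RNAi 1, and 2.58%, in Control 2. Their summed level was 4989, 25788 and 10088 CPM in the control libraries in replicate order, 5677, 17010 and 12891 CPM in Shal RNAi, 1651, 9388, 7581 and 6570 CPM in Notch RNAi, and 8637, 15222 and 3665 CPM with both targets (Notch+Shal RNAi). The ranges of all 4 groups overlapped, and the 3 control libraries alone spanned from 4989 CPM to the highest sum. Replicate 2 had the highest sum in all 4 groups (in 3 of the 4 with the scaling factors described next). Control 2 held the highest CPM of 7 of the 10 genes and Notch RNAi 1 the lowest of 8. With CPM also scaled by the TMM factor, here called normalised CPM, the counts were 5 and 9. In pooled cells, fewer cells of a type and less RNA per cell cannot be told apart.

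**Figure D1:**
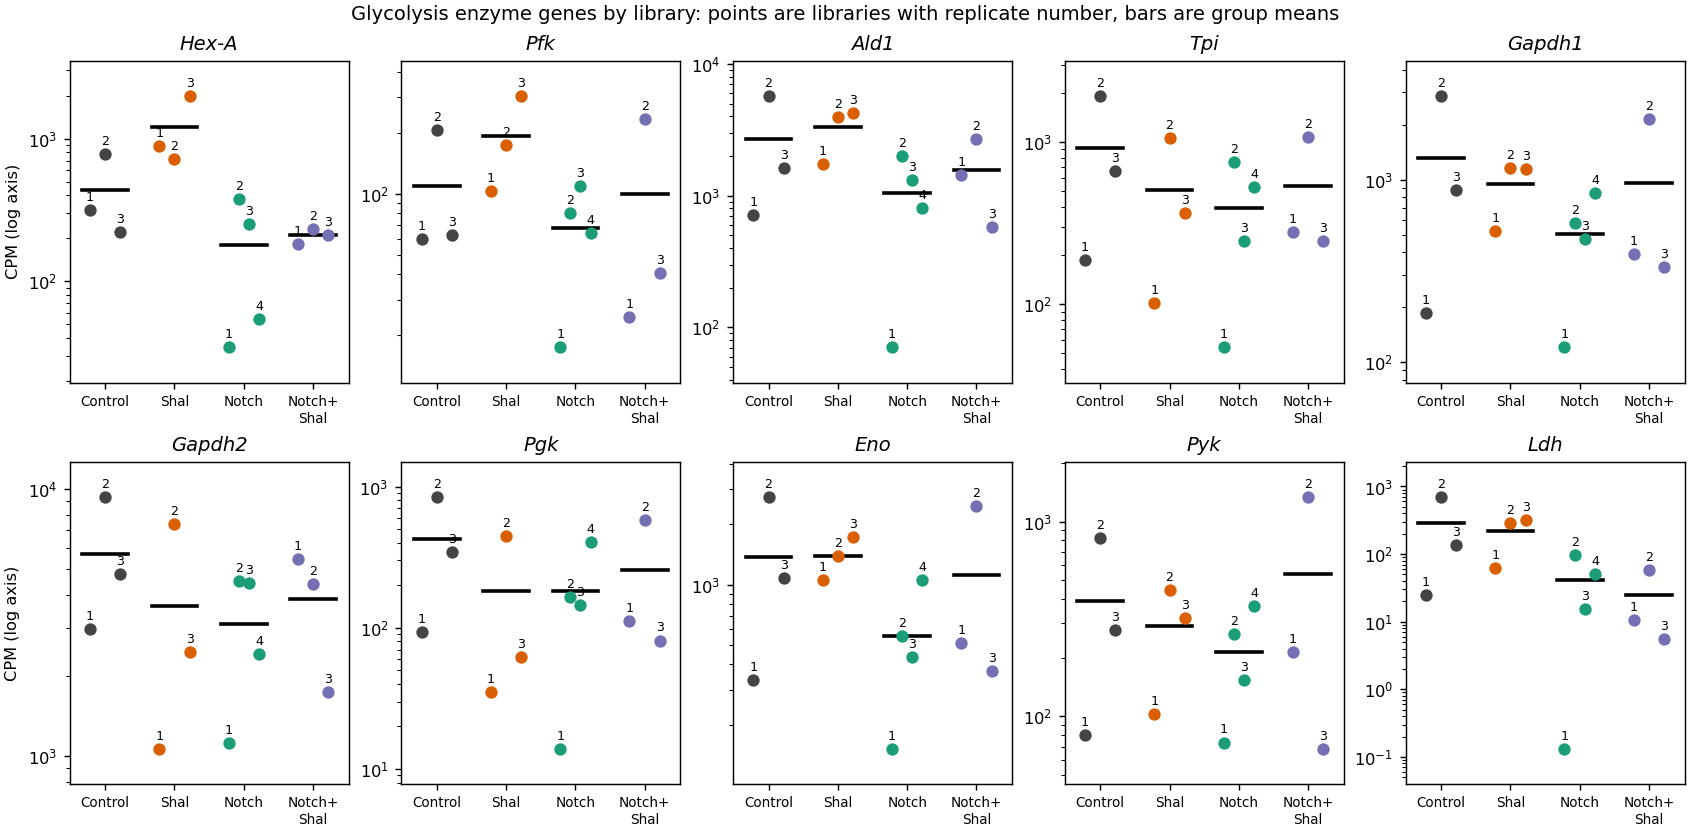
CPM of each glycolysis enzyme gene (log axis) in the 13 libraries, with 1 point per library, its replicate number above it and a bar at the group mean. Control 2 is the highest point for 7 genes, Notch RNAi 1 is the lowest for 8, and only Hex-A and Ldh separate Notch+Shal RNAi from Shal RNAi.

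The genes differed in how much they varied. The standard deviation of log2 CPM over the 13 libraries was 3.18 for Ldh, 1.71 for Pgk, 1.63 for Ald1, 1.59 for Hex-A and 0.97 for Gapdh2, the lowest of the 10. The median over the 4831 genes counted in every library was 1.26. Without Notch RNAi 1, where Ldh had a single count, the standard deviation was 2.11 for Ldh and 1.05 for Ald1, and the median over those genes was 1.24. Ldh, the lactate dehydrogenase, was the most variable of the enzyme genes and Gapdh2 the steadiest, with and without that library.

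Levels of different genes were compared per kb of exon, using the union of annotated exons. Gapdh2, which encodes the glyceraldehyde-3-phosphate dehydrogenase that makes glycolytic NADH, led at a median of 3054 CPM per kb and was first in 13 of 13 libraries. The aldolase gene Ald1 had a median of 426 CPM per kb and Gapdh1 389, and Ald1 was above Gapdh1 in 7 of 13 libraries. Gapdh1 was above the enolase gene Eno (median 283 CPM per kb) in 13 of 13, but Eno was above the triosephosphate isomerase gene Tpi (234) in 3, so the order of this pair by median does not hold in most libraries. Tpi was above the pyruvate kinase gene Pyk (118 CPM per kb) in 13 of 13 libraries. At the lower end stood Pgk (phosphoglycerate kinase) at 69.1, Hex-A (hexokinase) at 60.9, Ldh at 29.5 and Pfk (phosphofructokinase) at 18.4 CPM per kb. Pyk was above Pgk in 6 libraries, Pgk above Hex-A in 7, Hex-A above Ldh in 10 and Ldh above Pfk in 7, so these neighbours are not ordered beyond their spread. Hexokinase and phosphofructokinase, known as the regulated entry steps of the pathway, were among the lower levels.

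**Figure D2:**
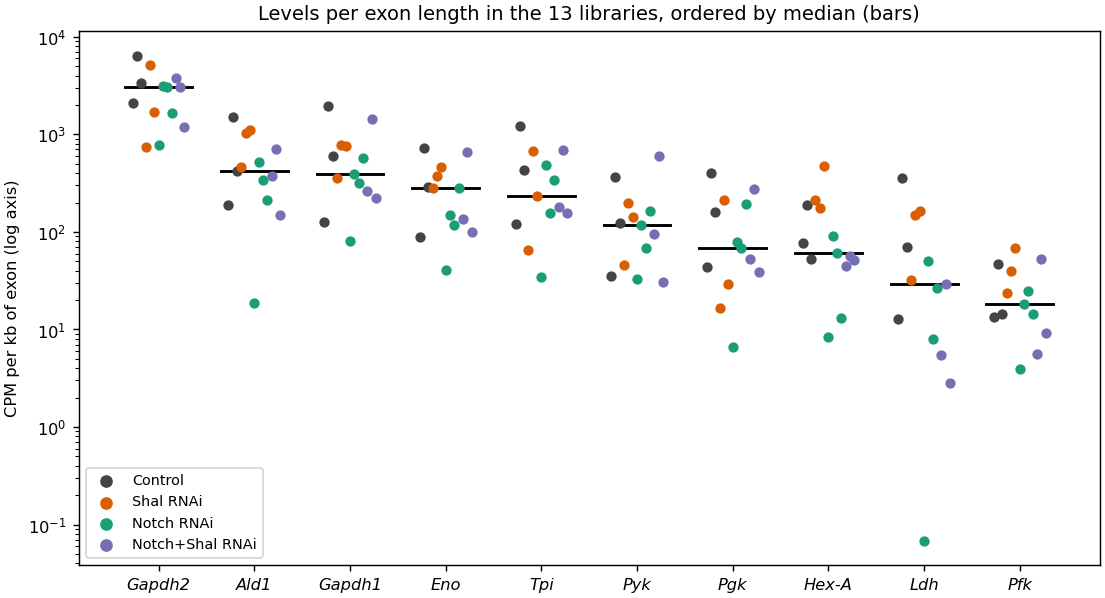
CPM per kb of exon (log axis) of each gene in the 13 libraries, 1 point per library coloured by group, with a bar at the median and genes ordered by it. Gapdh2, at 739 to 6432 CPM per kb, ranks first in each library, and Pfk has the lowest median, 18.4.

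Hex-A (FBgn0001186, chromosome X, 9585675 to 9589813, plus strand, build BDGP6.54) encodes the hexokinase that phosphorylates glucose and so commits it to the cell. Its level was 316, 780.3 and 220.2 CPM in control, 886, 725 and 1979.8 in Shal RNAi, 34.4, 376, 252 and 54.7 in Notch RNAi, and 184, 233 and 212 with both targets, in replicate order. The 3 Shal RNAi libraries lie at or near the top, with only Control 2 among them, and the Notch+Shal RNAi libraries lie close together at 184 to 233 CPM. Pfk (FBgn0003071, 2R, 10109740 to 10117457, plus strand) encodes phosphofructokinase, the main control point of the pathway. Pfk read 59.4, 206 and 62.4 CPM in control, 103, 174 and 302 in Shal RNAi, 17.4, 80.5, 109 and 63.7 in Notch RNAi, and 24.5, 233 and 40.4 with both targets. Its highest value was in Shal RNAi 3 and its lowest in Notch RNAi 1, and all group ranges overlapped.

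Ald1 (FBgn0000064, 3R, 26254069 to 26261591, minus strand) encodes the aldolase that splits fructose bisphosphate into 2 triose phosphates. Counts of Ald1 gave 717, 5677 and 1621 CPM in control, 1745, 3933 and 4223 in Shal RNAi, 70.4, 1992, 1307 and 799.9 in Notch RNAi, and 1433, 2689 and 574 with both targets. Control 1 and 3 lay below every Shal RNAi library, but Control 2 lay above them, so the groups overlapped. Tpi (FBgn0086355, 3R, 30132981 to 30134599, minus strand), the isomerase that interconverts the triose phosphates, stood at 186, 1914 and 667 CPM in control, 102, 1058 and 364 in Shal RNAi, 54.1, 751, 246 and 525 in Notch RNAi, and 280.4, 1075 and 245 with both targets. Shal RNAi 1 lay below every control for Tpi, whereas for Ald1 it lay above 2 of the 3.

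Gapdh1 (FBgn0001091, 2R, 7791901 to 7793380, minus strand) and Gapdh2 (FBgn0001092, X, 15868145 to 15869661, plus strand) are paralogs that encode near-identical enzymes, and how reads matching both were treated is not given in the sources used here. Their split is therefore uncertain. Gapdh1 was at 185, 2861 and 879 CPM in control, 525, 1163 and 1136 in Shal RNAi, 120.2, 575, 473 and 839.5 in Notch RNAi, and 392, 2145 and 333 with both targets. Gapdh2 was at 2993, 9281 and 4806 CPM in control, 1066, 7390.4 and 2455 in Shal RNAi, 1114, 4529, 4440.3 and 2402 in Notch RNAi, and 5477, 4407 and 1734 with both targets. Gapdh2 carried most of the pair's counts in every library, from 67.0% in Shal RNAi 1 (95% Wilson interval 65.9 to 68.1%) to 94.2% in Control 1 (93.9 to 94.5%). Its share was 85.0 ± 8.88% in control (SD, n = 3), 73.9 ± 10.8% in Shal RNAi (n = 3), 85.9 ± 7.88% in Notch RNAi (n = 4) and 81.5 ± 13.2% with both targets (n = 3). In Shal RNAi the share was low in replicates 1 and 3 (67.0 and 68.4%) and 86.4% in replicate 2, and Notch+Shal RNAi 2 was as low at 67.3%. None of the 5 pairwise differences passed a 2-sided exact permutation test (p = 0.3 to 0.914, adjusted over the 5 comparisons 0.75 to 0.914). With counts summed over each group instead, which gives more weight to libraries with more counts of the pair, the difference of Shal RNAi from control was 0.20 percentage points in place of -11.1, and that of Notch+Shal RNAi from Shal RNAi was -2.50 in place of 7.56. The exact test cannot go below 0.1 with 3 against 3 libraries or 0.0571 with 4 against 3.

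Pgk (FBgn0250906, 2L, 2746880 to 2753068, minus strand) encodes phosphoglycerate kinase, the first ATP-yielding step. It was measured at 93.4, 839 and 342 CPM in control, 35.1, 448 and 62.4 in Shal RNAi, 13.9, 166, 146 and 404 in Notch RNAi, and 112, 580.5 and 81.2 with both targets. Shal RNAi 1 and 3 were low for Pgk while they were high for Hex-A. The ratio of Hex-A to Pgk counts, examined after these values were seen, was 25.2 and 31.7 in those libraries and 0.135 to 3.39 in the other 11. Eno (FBgn0000579, 2L, 1724768 to 1729636, minus strand), the enolase that forms phosphoenolpyruvate, had 333.6, 2717 and 1076 CPM in control, 1051, 1385 and 1733 in Shal RNAi, 153, 556, 437 and 1059 in Notch RNAi, and 510.0, 2471 and 372 with both targets. Pyk (FBgn0267385, listed as PyK, 3R, 22367536 to 22372746, plus strand) encodes pyruvate kinase, which makes pyruvate and ATP. Pyk was counted at 79.8, 822 and 277 CPM in control, 103, 448 and 319 in Shal RNAi, 73.4, 264, 154 and 370.1 in Notch RNAi, and 214, 1331 and 68.4 with both targets. Notch+Shal RNAi held both its highest and its lowest library. Exons of Ald1, Pgk and Eno overlap genes on the other strand by 338, 65 and 362 bases, and the strand setting of the counting is not given in the sources used here.

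Ldh (FBgn0001258, 3L, 6259105 to 6262694, minus strand) encodes lactate dehydrogenase, which reduces pyruvate to lactate. Its level was 24.7, 691 and 137 CPM in control, 62.1, 286 and 316 in Shal RNAi, 0.133, 98.1, 15.6 and 51.5 in Notch RNAi, and 10.5, 57.2 and 5.46 with both targets. Notch RNAi 1 had a single count, below the floor of 3 counts. All 3 Notch+Shal RNAi libraries lay below the 3 Shal RNAi libraries, and 2 of them lay below the lowest control. Ldh was also set against Pyk inside each library, as log2 of the ratio of counts with 1 added to each. The log2 ratio was -1.69, -0.25 and -1.01 in control, -0.73, -0.64 and -0.02 in Shal RNAi, -8.11, -1.42, -3.28 and -2.84 in Notch RNAi, and -4.32, -4.54 and -3.61 with both targets. The Notch+Shal RNAi values lay below every control and every Shal RNAi value, while Notch RNAi 2 lay among the controls. The mean was -4.16 ± 0.49 (SD, n = 3) in Notch+Shal RNAi, -0.98 ± 0.72 (n = 3) in control and -0.46 ± 0.39 (n = 3) in Shal RNAi. The difference of -3.17 from control had a 2-sided exact permutation p = 0.1 (adjusted over 5 comparisons 0.190), and that of -3.69 from Shal RNAi the same, the smallest p that 3 against 3 libraries allow. Notch RNAi differed from control by -2.93 (exact permutation p = 0.114, adjusted 0.190), and by -1.53 without Notch RNAi 1. Shal RNAi differed from control by 0.52 (exact permutation p = 0.4). Muscle also uses Ldh in the larva, and the summed level of 12 muscle genes was 325 to 1455 CPM in Notch+Shal RNAi against 1071 to 3415 in control and 845 to 4372 in Shal RNAi. The part of muscle RNA in the Ldh values was not tested.

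**Figure D3:**
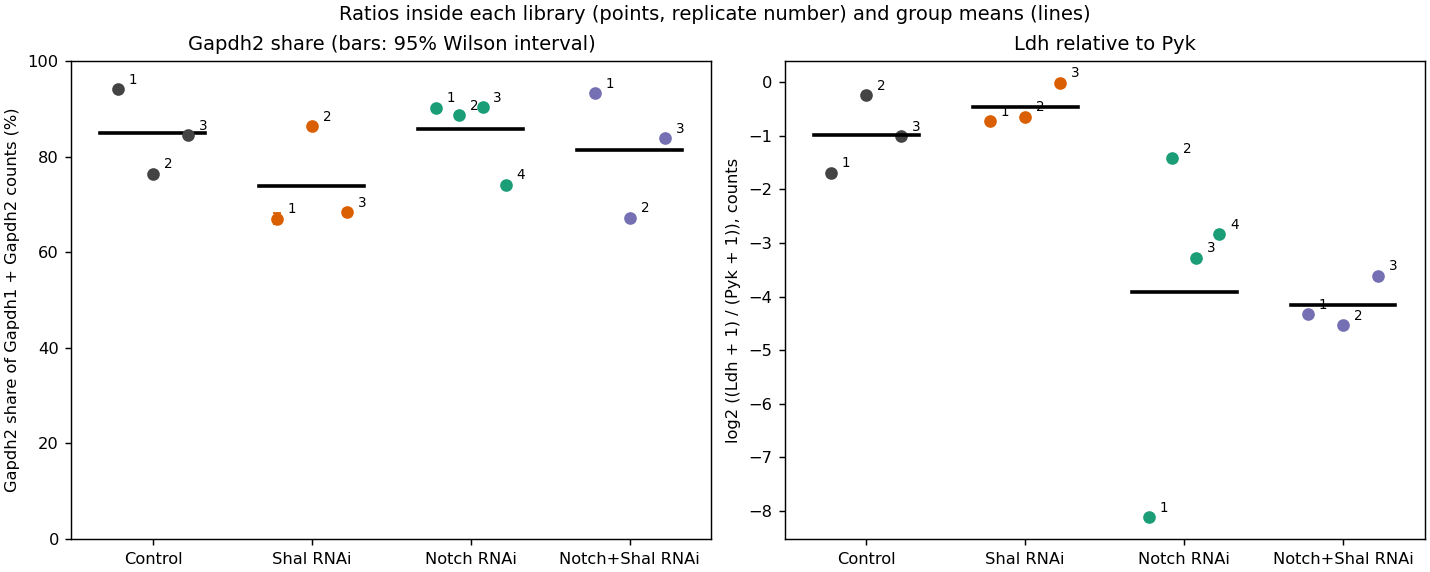
Left, the share of Gapdh1 and Gapdh2 counts that fell on Gapdh2 (%), with 95% Wilson intervals; right, log2 of Ldh over Pyk counts, each with 1 added. Points are libraries with their replicate number and lines are group means; on the right the 3 Notch+Shal RNAi libraries (-4.54 to -3.61) lie below every control and Shal RNAi library.

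Group differences were then tested for each gene with edgeR's quasi-likelihood test on the raw counts, adjusted by the Benjamini-Hochberg method over all 8908 genes that passed the low-count filter. All 10 enzyme genes passed the filter. No enzyme gene passed an adjusted p of 0.05 in any of the 6 comparisons, where the share over all genes was 0%, and no gene of the table did. Over all genes an unadjusted p under 0.05 was reached by 1047 genes (11.8%) in Shal RNAi against control, 386 (4.33%) in Notch RNAi, 382 (4.29%) with both targets, 1092 (12.3%) with both targets against Shal RNAi, 431 (4.84%) against Notch RNAi and 813 (9.13%) in the interaction. DESeq2 called 309, 32, 24, 307, 33 and 118 genes in the same order, and among them 2 enzyme genes, both in Notch+Shal RNAi against Shal RNAi. The fold changes below are thus descriptions with wide intervals. The 3 comparisons with control share the same control libraries.

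In Shal RNAi against control Hex-A and Pfk stood highest of the 10 enzyme genes, and the middle of the pathway showed no common direction. Hex-A had a log2 fold change of 2.22 (SE 0.79, 95% interval 0.61 to 3.84, unadjusted p = 0.00887, adjusted p = 0.263) and Pfk one of 1.53 (SE 0.81, 95% interval -0.13 to 3.19). Ald1 followed at 0.96, Eno at 0.74, Ldh at 0.26, Gapdh1 at 0.18 and Pyk at 0.14, while Gapdh2 was at -0.20, Tpi at -0.43 and Pgk at -0.86. These 7 of 10 positive values compare with 42.8% of all genes, and the median was 0.22 against -0.27 over all genes. Limma voom gave a median of 0.95. With TMMwsp scaling, which moved the median of all genes to -0.024, Gapdh2 turned positive (0.030) and 8 of 10 were above 0. Hex-A was the only one of the 10 with an unadjusted p under 0.05 and a higher level, where 8.04% of all genes were. Its groups did not overlap in normalised CPM (lowest Shal RNAi 695, highest control 693), as for 6.50% of genes, but they did in CPM. Without Shal RNAi 1 and 3, the libraries rich in mitochondrial RNA, the log2 fold change of Hex-A was 0.86, and Tpi, Gapdh2 and Pgk were positive while Gapdh1 was -0.025. Without Control 2 all 10 values were positive and their median was 1.65, whereas without Control 1, Control 3 or Shal RNAi 3 only 4 were. Mitochondrial RNA took 5.36 to 13.5% of counts in Shal RNAi and 2.38 to 2.60% in control. A fit without the mitochondrially encoded genes left 7 of the 10 above 0 and 3 below, with a median over all genes of -0.268. Beyond that fit, the part of mitochondrial RNA in these values was not tested. Of the marker genes, 8 of 9 of the fat body (median 1.07) and 7 of 8 of motoneurons (median 0.87) were also above 0, while the summed fat body level was 6626 to 11451 CPM in Shal RNAi and 5468 to 16510 CPM in control. The part of fat body RNA was not tested.

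In Notch RNAi against control all 10 enzyme genes had a log2 fold change below 0, as 48.6% of all genes did, with a median of -1.22 against 0.03. Ldh was lowest at -2.70 (SE 0.99, 95% interval -4.76 to -0.64, unadjusted p = 0.0127, adjusted p = 0.999). Next came 6 genes close together: Gapdh1 was at -1.37, Eno at -1.33, Pgk at -1.27, Ald1 at -1.26, Tpi at -1.18 and Hex-A at -1.17. Pyk was at -0.86, Gapdh2 at -0.76 and Pfk at -0.65. Ldh alone had an unadjusted p under 0.05, against 2.42% of all genes in that direction, and no enzyme gene separated the groups, in CPM or normalised CPM (2.93% and 2.47% of all genes lay wholly lower). The common direction rested on 1 control library: without Control 2 the median was -0.09 and 4 of the 10 were above 0. Ldh was at -2.29 without Notch RNAi 1, the library with a single Ldh count, and at -0.79 without Control 2. Beside these values, 11 of 12 muscle genes (9 with TMMwsp scaling) were also below 0 (median -0.40, summed level 615 to 3498 CPM against 1071 to 3415 in control), and 6 of 8 motoneuron genes (7 with TMMwsp scaling) were above 0. Of 6 interneuron marker genes, 2 passed the filter, and 2 of 2 were above 0 (median 1.79). Most counts of this list fell on ple, with 10589 over all libraries, followed by VGAT with 1174. ChAT and VAChT had 2 counts each, Vmat 28 and Gad1 136, so the sums below mainly follow ple. The 6 genes summed to 561 CPM in Notch RNAi 1 and 440 CPM in Notch RNAi 4. Their sum was 43.2 CPM in Notch RNAi 2, 7.40 CPM in Notch RNAi 3 and 23.0 to 90.5 CPM in control. The part of muscle RNA or of RNA from other neurons was not tested.

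In Notch+Shal RNAi against control 9 of 10 values were below 0, as for 44.3% of all genes, with a median of -0.64 against 0.11. Ldh was again the lowest at -3.53 (SE 1.15, 95% interval -5.92 to -1.14, unadjusted p = 0.00579, adjusted p = 1.00), and 1.58% of all genes were lower with an unadjusted p under 0.05. Hex-A was at -1.01 (SE 0.77), Tpi at -0.81, Ald1 at -0.79 and Pgk at -0.76. Gapdh2 was at -0.52, Gapdh1 at -0.50, Eno at -0.34, Pfk at -0.18 and Pyk at 0.37. Without Control 2, Ldh was at -1.62, 8 of the 10 were above 0 and the median was 0.42; without Notch+Shal RNAi 2 the median was -1.54. In this comparison 12 of 12 muscle genes were below 0 (median -1.43), and 6 of 8 hemocyte genes were above 0 (median 2.71, summed level 119 to 898 CPM against 125 to 324). Of the fat body genes 8 of 9 were above 0 (median 0.59), with a summed level of 2063 to 20379 CPM against 5468 to 16510 CPM. The part of these cell types was not tested.

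Of the 10 genes, Hex-A and Ldh differed most between the libraries with both targets and Shal RNAi. Hex-A differed by -3.24 on the log2 scale (SE 0.82, 95% interval -4.93 to -1.55, unadjusted p = 5.50e-04, adjusted p = 0.208) and Ldh by -3.79 (SE 1.17, unadjusted p = 0.0038, adjusted p = 0.243). Ald1 at -1.75 (unadjusted p = 0.0473) and Pfk at -1.71 (unadjusted p = 0.0453) also had an unadjusted p under 0.05, making 4 of 10 where 6.70% of all genes were lower at that level. Eno was at -1.08, Gapdh1 at -0.68, Tpi at -0.39, Gapdh2 at -0.32, Pgk at 0.11 and Pyk at 0.24. In all, 8 of 10 were below 0, against 39.9% of all genes, and the median was -0.88 against 0.38; with TMMwsp scaling 9 were below 0. Hex-A and Ldh did not overlap between the groups in CPM, as for 2.59% of genes, and Ald1 joined them in normalised CPM (4.24%). DESeq2, run as an alternative, called both genes, with adjusted p = 0.00512 for Hex-A and 0.0406 for Ldh. Without Shal RNAi 1 and 3 the value of Hex-A was -1.89 and that of Ldh -3.66. All 12 muscle genes were below 0 here too (median -1.51), 6 of 8 motoneuron genes (7 with TMMwsp scaling) were below 0 and 6 of 8 hemocyte genes above (median 2.11). Of 5 glia genes tested, 4 were below 0 (median -1.42), with the glia list at 174 to 387 CPM against 218 to 761. The part of these cell types was not tested.

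Against Notch RNAi, Notch+Shal RNAi had 9 of 10 values above 0, as for 55.8% of all genes, with a median of 0.47 against 0.12, and 8 above 0 with TMMwsp scaling. Pyk was highest at 1.23 (SE 0.76, unadjusted p = 0.117, adjusted p = 1.00), and Ldh was the exception at -0.83 (SE 1.06). Without Notch+Shal RNAi 2 the median was -0.39 and Pyk was at -0.50. Of the marker genes, 12 of 12 of muscle were below 0 (median -0.78), while 8 of 9 of the fat body (median 0.91, 7 with TMMwsp scaling) and 7 of 8 of hemocytes (median 3.08) were above 0. Summed fat body genes stood at 2063 to 20379 CPM against 2273 to 9777, and summed hemocyte genes at 119 to 898 CPM against 36.0 to 316. The interaction, which asks whether adding Notch RNAi to Shal RNAi differs from adding it to control, was 0.34 at the median against 0.40 over all genes, with 6 values above 0 (58.9% of all genes). Hex-A was at -2.07 (SE 1.06, unadjusted p = 0.0611, adjusted p = 0.568), and its interval of -4.25 to 0.10 includes 0. The median of the interaction changed sign with the scaling, to -0.033 with TMMwsp factors. In the interaction 11 of 12 muscle genes (median -0.89, 12 with TMMwsp scaling), 6 of 8 motoneuron genes (median -1.29, 7 with TMMwsp scaling) and 4 of 5 glia genes (median -1.40) were below 0, and 6 of 8 hemocyte genes were above 0 (median 3.14). Their part in the enzyme values of either comparison was not tested.

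**Figure D4:**
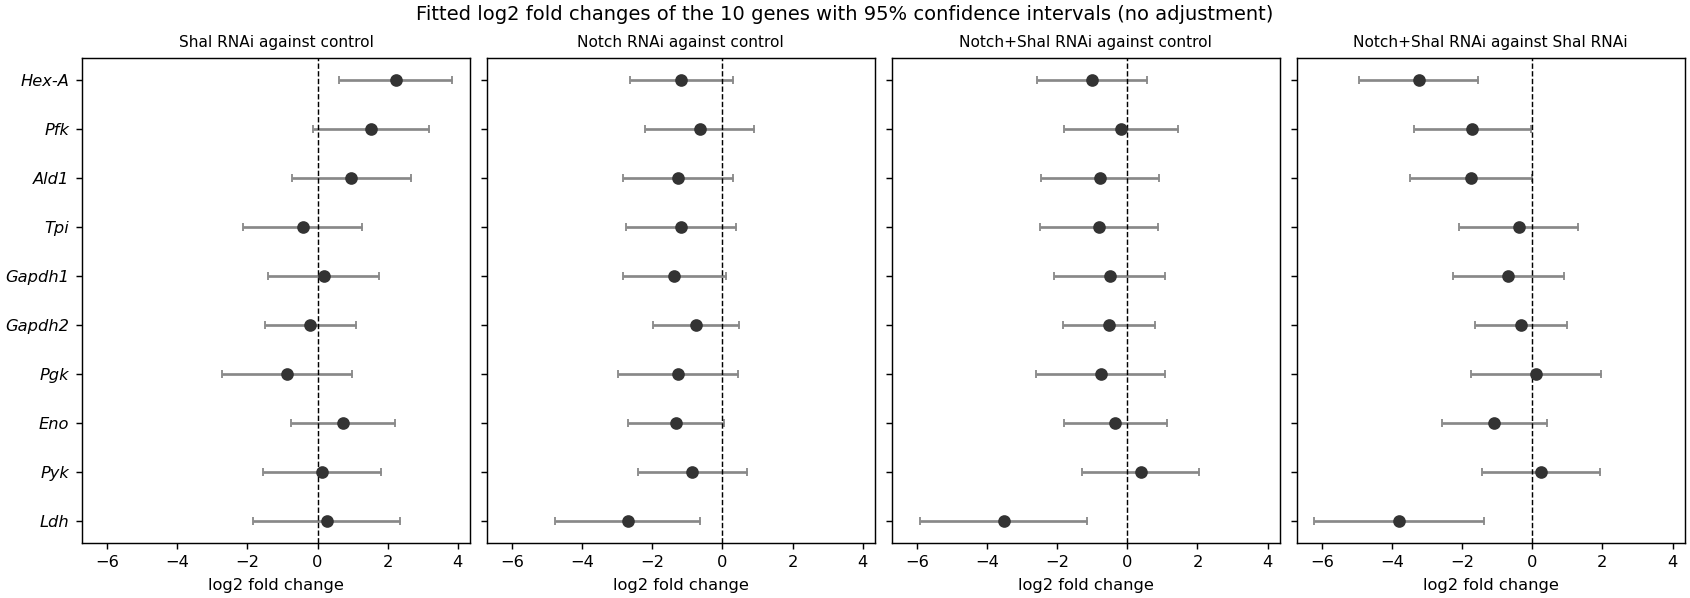
Fitted log2 fold changes of the 10 genes (points) with unadjusted 95% confidence intervals (bars) in 4 comparisons; the dashed line marks 0. Intervals that exclude 0 belong to Hex-A in Shal RNAi against control, to Ldh in both Notch-targeted groups against control, and to Hex-A, Pfk, Ald1 and Ldh in Notch+Shal RNAi against Shal RNAi, and none passed adjustment over all genes.

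Genes next to the pathway were read from lists fixed by name, and none passed in any comparison. Of 20 further glycolysis and gluconeogenesis genes, 8 passed the filter: each against control, 3 were above and 5 below 0 in Shal RNAi, 3 and 5 in Notch RNAi, and 5 and 3 with both targets. Pgi, the glucose-6-phosphate isomerase between Hex-A and Pfk, was counted in all 13 libraries at 17.4 to 939 CPM (log2 fold change 0.70 in Shal RNAi). Pglym78, a phosphoglycerate mutase, ranged from 9.70 to 1487 CPM and had log2 fold changes of -1.59 (SE 0.80) in Notch RNAi and -1.21 with both targets. Pfrx, which makes an allosteric activator of phosphofructokinase, reached 62.8 CPM and was at 1.43 and 2.04 in the same comparisons. The hexokinase copies Hex-C, Hex-t1 and Hex-t2 were counted in 1, 2 and 6 libraries, and the highest of their values was 15.3 CPM, so Hex-A carried nearly all hexokinase counts. CG9961, a phosphoglycerate kinase copy, was counted in only 5 libraries, at most at 14.1 CPM. It was at 0 in all Shal RNAi libraries, but also in Control 2 and Control 3.

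Among 15 genes of sugar supply, 10 passed the filter, with medians of 0.32, -0.65 and -0.42 in the 3 comparisons with control in the same order. Glyp, the glycogen phosphorylase that releases sugar from glycogen, was at -1.58 (SE 0.72, unadjusted p = 0.0367, adjusted p = 0.999) in Notch RNAi, and Glys, the glycogen synthase, at -1.12. Glut1, a glucose transporter, was counted in every library at 176 to 474 CPM. The trehalose transporter gene Tret1-1 was at 1.45 in Shal RNAi. Sln, a monocarboxylate transporter that carries lactate and pyruvate, was at 3.41 (SE 1.55) in Shal RNAi and 3.13 (SE 1.47) in Notch+Shal RNAi, but it was at 0 in 2 of 3 Shal RNAi libraries and reached 59.8 CPM in the third. AGBE, the glycogen branching enzyme, was at -2.44 in Notch+Shal RNAi.

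All 17 genes of pyruvate use and redox shuttles passed the filter, and 8, 3 and 4 of them were above 0 in the comparisons of Shal RNAi, Notch RNAi and both targets with control. In Shal RNAi muc, a subunit of the pyruvate dehydrogenase complex, was at 2.20 (SE 0.76, unadjusted p = 0.00797, adjusted p = 0.258) and PCB, the pyruvate carboxylase, at 1.84 (SE 0.79). In Notch RNAi the malic enzyme gene Men was at -1.45 and Gpdh1, the glycerol-3-phosphate dehydrogenase of the shuttle that also restores NAD+, at -1.79. In Notch+Shal RNAi the aminotransferase gene Got1 was at -1.08 and Mpc1, the mitochondrial pyruvate carrier, at -1.06. Of 15 genes of the tricarboxylic acid cycle, all tested, 8, 1 and 5 were above 0, with medians of 0.0094, -0.55 and -0.22. With TMMwsp scaling these counts were 9, 5 and 5, and those of the pyruvate and shuttle genes 10, 5 and 5. Ogdh, the oxoglutarate dehydrogenase, was at 2.20 (SE 0.81) and CG5214 at 1.40 in Shal RNAi, Idh3g at -0.88 and Mdh2 at -1.02 in Notch RNAi, and CG5214 at 1.30 and Idh3g at -0.84 in Notch+Shal RNAi.

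The 7 genes of the pentose phosphate pathway, the branch that makes NADPH and ribose, had 1, 1 and 0 values above 0 and medians of -1.08, -0.58 and -0.73. Rpe was at -1.54 and Taldo at -1.08 in Shal RNAi. Zw was at -1.54 (SE 1.30) and Pgd at -0.998 in Notch RNAi. In Notch+Shal RNAi, Zw was at -1.85 (SE 1.48) and Taldo at -0.73. Levels were low for Zw, counted in 7 libraries at no more than 6.94 CPM, and for Pgd, in 10 at no more than 19.6 CPM. Of 12 regulators, 8, 6 and 10 were above 0 (9, 7 and 10 with TMMwsp scaling). The growth regulator Myc was at 1.82 (SE 0.73) in Shal RNAi. ERR, the nuclear receptor known in flies to switch on glycolytic genes in the embryo and larva, had no count in any of the 3 Shal RNAi libraries and 9.63 to 17.0 CPM in control (unadjusted p = 0.0199, adjusted p = 0.340). Notch+Shal RNAi 1 had none either, and the log2 fold change in Notch RNAi was -1.02. The Shal RNAi libraries detected 7698, 8212 and 7364 genes, against 9160, 9010 and 9244 in control. Whether ERR was missed at this low level rather than absent was not tested. The sugar-responsive factor gene sug had no count in control and at most 10.3 CPM elsewhere, and the corepressor gene CtBP was at 1.01 in Notch+Shal RNAi. The hypoxia factor gene sima was counted in every library at 18.5 to 114.7 CPM.

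Genes whose pattern over the 13 libraries lay nearest to that of the 10 enzyme genes were found by centring log2 CPM and taking the mean absolute difference from the mean of the 10. Of 4352 other genes counted in every library with a mean of at least 20 CPM, the nearest was Glyp (0.29 on the log2 scale), followed by Pgi (0.41), Glys (0.41), Pdha, the alpha subunit of pyruvate dehydrogenase (0.44), and CG1648 (0.53). The median of these genes was 1.36. Of the 10 themselves, Gapdh1 lay nearest to their mean (0.34), then Ald1 (0.40) and Eno (0.42), while Hex-A (0.88) and Ldh (1.48) lay farthest. Each of the 10 is part of that mean, which lowers its distance, so these values are not comparable with those of the other genes. The summed tricarboxylic acid cycle genes were at 0.65 from the mean, the summed motoneuron markers at 1.04, muscle markers at 1.04 and fat body markers at 1.50, and a flat line would lie at 1.01. The summed glia markers were at 1.06, hemocyte markers at 1.87 and interneuron markers at 2.48. This distance also counts how far a pattern swings, so it does not show whether RNA of a cell type contributed, which was not tested. These distances share libraries and depth and describe these 13 libraries.

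**Figure D5:**
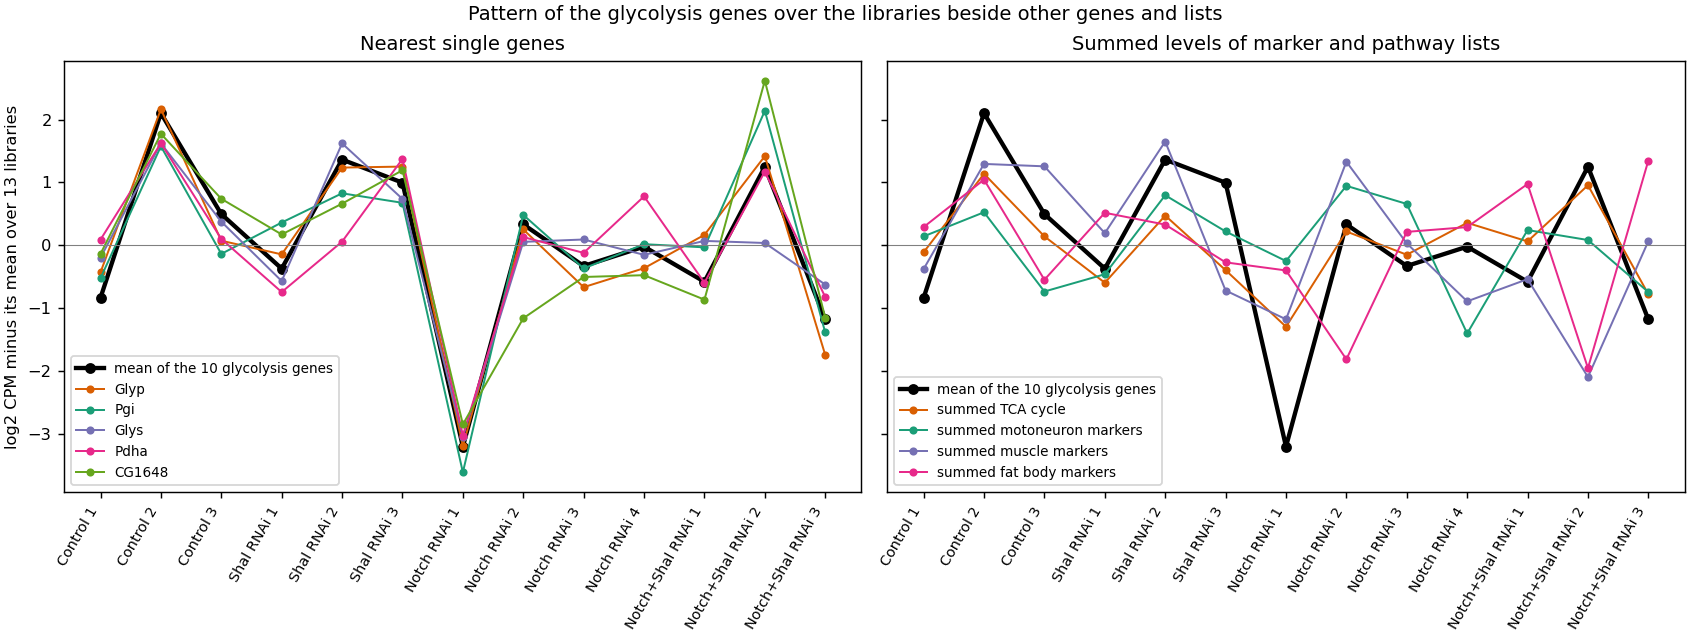
Log2 CPM of each library minus the mean over the 13 libraries, for the mean of the 10 glycolysis genes (black) beside the 5 nearest single genes (left) and the summed levels of 4 lists (right). Glyp follows the black line at a mean distance of 0.29, whereas the motoneuron and muscle lists lie at 1.04.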

How the data were processed

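RNA was measured in 13 libraries of pooled MN1-Ib motoneurons. The deposited table holds the authors' raw read counts per gene, not normalized. Genome build BDGP6 and the tools STAR (2.7.0e), R (3.6.1), limma (3.40.6) and edgeR (3.26.7) are listed, per the submitters' processing notes. What each tool did, which annotation was used, whether strand was counted, and how duplicate or multiply matching reads were handled is not given in the sources used here. Counts of Gapdh1 and Gapdh2 may thus be split or lost, and amplification noise adds to the spread.

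Groups came from the labels. Coordinates, exon lengths and symbols come from BDGP6.54, which holds 17626 of the 17753 gene IDs. The enzyme genes and the lists were chosen with earlier results of these data known. Of 150 listed names, 1 had no match, and the second pyruvate carrier subunit was taken as CG9399. Counts were fitted in edgeR 4.0.16 (R 4.3.3) with TMM factors after filterByExpr (a count of 10, a total of 15), with 1 robust quasi-likelihood model for all 13 libraries. Tests were 2-sided and adjusted over 8908 genes at 0.05. Dispersion per gene, estimated apart from that model, had a median of 1.36 over genes (a coefficient of variation of 1.17) and was 0.375 to 1.17 for the enzyme genes. Alternatives were RLE and TMMwsp factors, no filter, DESeq2 1.42.0, limma 3.58.1 voom, no mitochondrially encoded genes, a replicate block, the compared groups alone, each library left out, and, chosen after seeing the data, Shal RNAi 1 and 3 left out and an older edgeR fit. Ratios were compared by exact permutation tests in scipy 1.17.1. The fit was tested on simulated data. Libraries of the same group differed by more than sampling noise in every pair (chi-square over degrees of freedom 128 to 604). Named were all enzyme genes, the 2 genes of each related list with the lowest p in each comparison with control, the 5 nearest patterns, the targets and defining markers. Glut1, sima and the hexokinase copies were named after their values were seen.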

Additional observations from a re-analysis of the deposited data

Results flagged for a closer look

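The share of Gapdh1 and Gapdh2 counts that fell on Gapdh2 was 74.1% in Notch RNAi 4, against 88.7 to 90.4% in the other 3 Notch RNAi libraries. The gap to the nearest of them was 0.899 of the range of the group. Of 13 sets of values examined in this way 1 stood out, and chance gives about 1 in 20. Notch RNAi 4 also detected the most genes, 9839, and had the lowest VGlut, 401 CPM; neither was tested as a cause.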

How the results depend on the processing

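The spread between libraries limits these results more than depth does: the lowest count of any enzyme gene other than Ldh was 105. DESeq2 called the 309, 32, 24, 307, 33 and 118 genes given above, 2 of them enzyme genes. No low-count filter gave 26, 1, 1, 4 and 1 called genes in the first 5 comparisons, the compared groups alone 23 in Shal RNAi against control, and TMMwsp factors 2 in Notch RNAi against control. The causes were not tested. Same-numbered libraries did not all deviate together: of 18 pairs 15 correlated above 0 and 5 above 0.1 (-0.199 to 0.247), against 23 of 45 differently numbered pairs above 0, and 7 of 13 libraries correlated best with their own number. The 6 pairs of replicate 2 all lay above 0 (0.069 to 0.20), and replicate 2 had the highest summed enzyme level in all 4 groups. The labels tie no number to a shared batch. With a replicate block 1 gene was called in Notch RNAi against control, 1 in Notch+Shal RNAi against Shal RNAi and 9 in the interaction, no enzyme gene among them, and the median of the enzyme genes was 1.12, -1.14, -0.34, -1.36, 0.83 and -0.062 over the 6 comparisons in the order used for DESeq2. The median in the interaction was -0.033 with TMMwsp, -0.18 with limma voom and -0.12 without Shal RNAi 1 and 3, which also gave Tpi 0.35, Gapdh1 -0.025, Gapdh2 0.53 and Pgk 0.23 in Shal RNAi against control; TMMwsp gave Gapdh2 0.030 there. With counts summed over a group, the difference in Gapdh2 share was 0.20 percentage points in Shal RNAi against control and -2.50 in Notch+Shal RNAi against Shal RNAi.

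Leaving out each library in turn gave 0 to 146 called genes in Shal RNAi against control (most without Shal RNAi 2), 0 to 2 in Notch RNAi, 0 to 1 in Notch+Shal RNAi, 0 to 26 against Shal RNAi (without Shal RNAi 2) and 0 to 2 against Notch RNAi, and no enzyme gene in any. The median of the enzyme genes ranged from -0.31 to 1.65 in Shal RNAi, from -1.68 to -0.09 in Notch RNAi, from -1.54 to 0.42 in Notch+Shal RNAi, from -2.03 to -0.51 against Shal RNAi, from -0.39 to 0.95 against Notch RNAi and from -0.75 to 0.72 in the interaction. In Shal RNAi, Tpi ranged from -0.98 to 0.76, Gapdh1 from -0.34 to 1.55, Gapdh2 from -0.69 to 0.38, Pgk from -2.10 to 0.17, Pyk from -0.34 to 1.34 and Ldh from -0.34 to 2.16. In Notch RNAi, Pfk ranged from -1.01 to 0.23, Tpi from -1.83 to 0.0066, Gapdh1 from -1.88 to 0.0081 and Pyk from -1.33 to 0.35. In Notch+Shal RNAi, Pfk ranged from -1.59 to 0.70, Ald1 from -1.29 to 0.46, Tpi from -1.65 to 0.37, Gapdh1 from -1.69 to 0.88, Gapdh2 from -0.90 to 0.058, Pgk from -1.98 to 0.28, Eno from -1.48 to 0.69 and Pyk from -1.35 to 1.59, and Pyk against Notch RNAi from -0.50 to 1.73. The highest value of each gene against control came without Control 2. The Gapdh2 share differed by -9.47 to 3.56 points in Notch+Shal RNAi, by -3.49 to 5.38 in Notch RNAi and by -10.29 to 2.74 between them, and the Ldh to Pyk log2 ratio by -1.64 to 0.59 between them. Hex-A kept its direction in Shal RNAi against control and in Notch+Shal RNAi against Shal RNAi under every alternative run, as did Ldh in the 2 comparisons with control of the Notch-targeted groups.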
